A study of Mus musculus with 12 samples.

Results

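The cytochrome P450 genes of families 1 to 4 were examined in mouse skin and in skin tumours. Members were all protein-coding entries of the deposited table whose symbol begins with Cyp, a family number from 1 to 4, a subfamily letter and a gene number, with Cyp4f39 left out, which gave 77 of the 34303 gene symbols. Family 1 had 3 members, family 2 had 49, family 3 had 9 and family 4 had 16. RNA sequencing covered 12 libraries of the C57Bl6 strain: skin of wild-type (WT) mice (n = 3), skin of TAp63-/- mice (n = 3), cutaneous squamous cell carcinoma (cSCC) of WT mice (n = 2) and cSCC of TAp63-/- mice (n = 4). TAp63 denotes the p63 isoforms with the transactivation domain, and the labels do not say how or in which cells the allele was made. Skin was untreated and came from animals 4 weeks old, whereas the tumours came from animals older than 35 weeks given ultraviolet radiation at 2.5 kJ/m2 in 3 sessions weekly. Replicates are numbered in accession order, and the labels do not state that each library is a separate animal, so p-values measure the spread between these samples.

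P450 enzymes are haem proteins of the endoplasmic reticulum that insert an oxygen atom into their substrates with electrons from P450 oxidoreductase. Families 1 to 3 are best known for oxidising drugs, pollutants and steroids in the liver, and several family 2 and family 4 enzymes act on arachidonic acid and other fatty acids. In skin, keratinocytes, sebaceous glands and dermal cells each use some of them, and ligands of the aryl hydrocarbon receptor induce the family 1 genes.

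Values are FPKM, that is fragments per kilobase of transcript scaled to library size, so levels can be set side by side between genes. All 12 columns shared 1 distribution, so read depth is unknown and no counting interval is given. Skin and tumour differed in age and irradiation in every library, and these cannot be told apart from tumour formation. Sex also differed: all 6 skin libraries and TAp63-/- cSCC replicate 1 had transcripts of Y-linked genes (summed level 73.4 to 127 FPKM), while the other 5 tumours had Xist at 21.5 to 83.6 FPKM. The skin and tumour titles also begin with different letters, whose meaning is not given. Keratinocyte markers summed to 5242 to 9293 FPKM in skin and 8542 to 23422 in tumours, and wound keratinocyte markers to 428 to 1364 and 6728 to 28847. Skeletal muscle markers (5 of 6 found in the table) summed to 4422 to 8998 FPKM in skin and 39.1 to 555 in tumours. The whole Trp63 gene, whose value does not separate the deleted isoforms from the others, lay at 84.5 to 119 FPKM in skin and 97.3 to 258 in tumours, so it does not check the genotype.

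A minority of the 77 genes was measured above trace levels. In all 12 libraries 11 members reached 1 FPKM, 25 averaged at least 1 FPKM in a group, and 24 passed the filter for testing (at least 1 FPKM in at least 2 libraries). A further 29 stayed below 1 FPKM in every library, and 22 were listed at 0 throughout, which does not show that they are absent. The number of members at 1 FPKM or more was 20 to 23 per skin library and 15 to 20 per tumour.

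**Figure D1:**
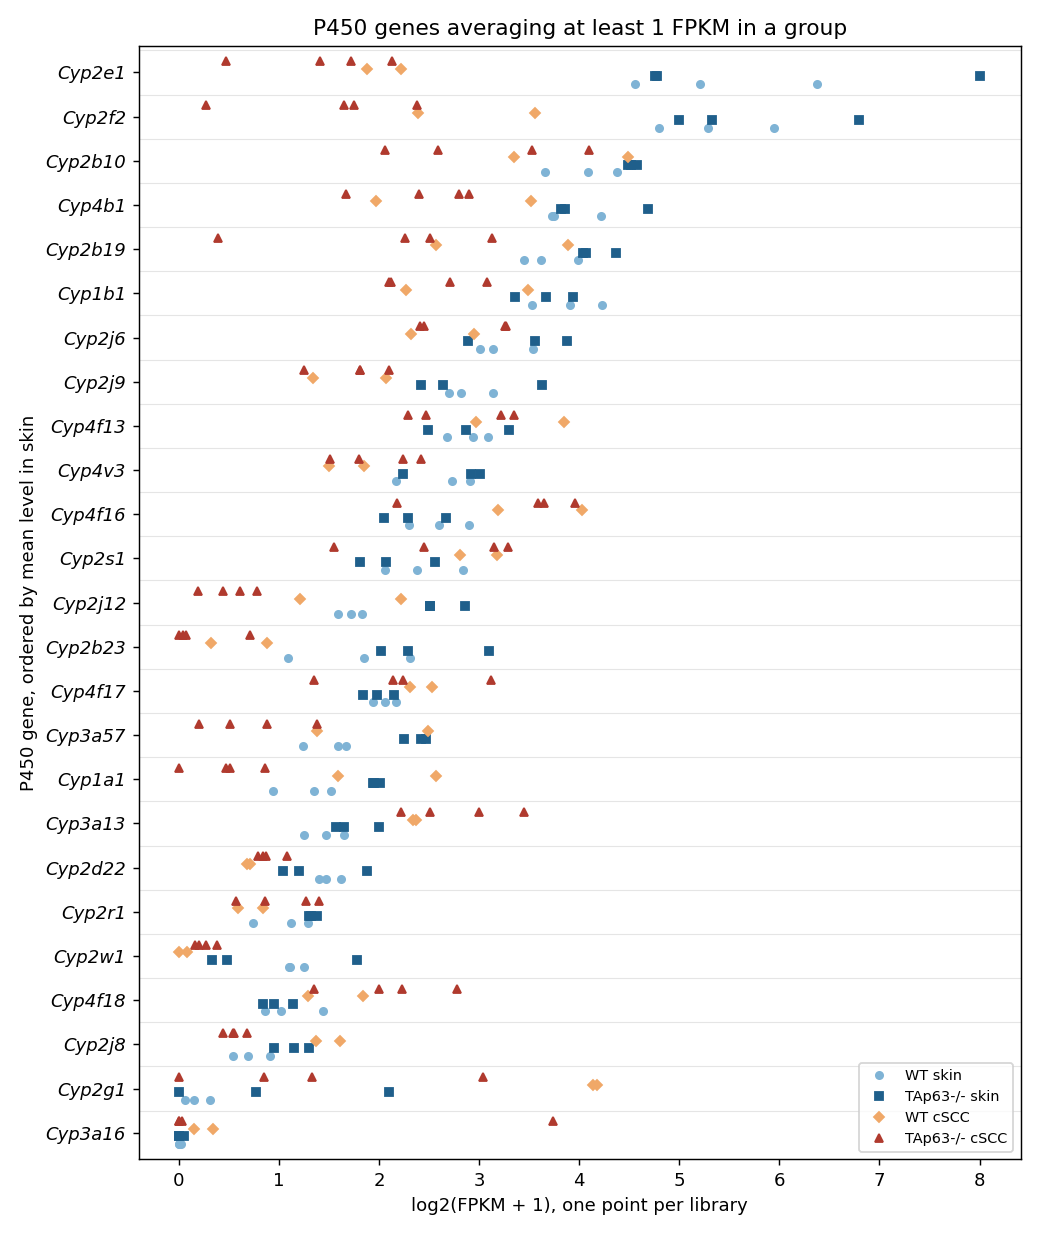
Levels of the 25 P450 genes that averaged at least 1 FPKM in a group, as log2(FPKM + 1), 1 point per library, ordered by mean level in skin. Cyp2e1 and Cyp2f2 head the list in skin, where all 6 libraries lie to the right of all 6 tumours.

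Several subfamilies best known from liver were at trace levels. None of the 15 Cyp2c genes was tested, 8 of them were listed at 0 in every library, and the highest Cyp2c value was 0.159 FPKM. The 4 Cyp2a genes peaked at 0.842 FPKM and the 6 Cyp4a genes, known targets of PPAR-alpha in liver, at 0.375. Hepatocyte markers summed to only 0.319 to 1.93 FPKM. In contrast, 3 of 5 Cyp2b, 4 of 8 Cyp2j and 4 of 7 Cyp4f genes were tested. The genes listed at 0 in all libraries were Cyp2a12, Cyp2a22, Cyp2c29, Cyp2c37, Cyp2c38, Cyp2c39, Cyp2c50, Cyp2c54, Cyp2c67, Cyp2c68, Cyp2d9, Cyp2d11, Cyp2d12, Cyp2d34, Cyp2d37-ps, Cyp2d40, Cyp2j5, Cyp2j7-ps, Cyp3a44, Cyp3a59, Cyp4f40 and Cyp4x1. Some members share sequence, so reads could be split between them: 50-base stretches found in another gene made up 52.8% of Cyp2c67, the highest share among the genes listed at 0, and 98.6% of Cyp3a41a, whose highest value was 0.0168 FPKM. Among the 24 tested members the shared part was at most 17.4%, in Cyp4f16.

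Members sit in tandem arrays, and levels differed widely between neighbours. With members less than 500 kb apart joined, 8 clusters held 68 of the 77 genes (coordinates on mm10). The chromosome 7 cluster, from 25802475 to 27158668, held 13 members, of which 6 were tested. Within it, Cyp2f2 and Cyp2b23 were lower in every tumour than in every skin library, while Cyp2g1 was highest in the WT tumours. How many of all tested genes separate every tumour from every skin library was not computed. The chromosome 4 cluster of Cyp2j genes (96027534 to 96664154) had 4 tested members of 8, and the chromosome 19 cluster of Cyp2c genes (39007019 to 40187333) had 0 of 14.

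**Figure D2:**
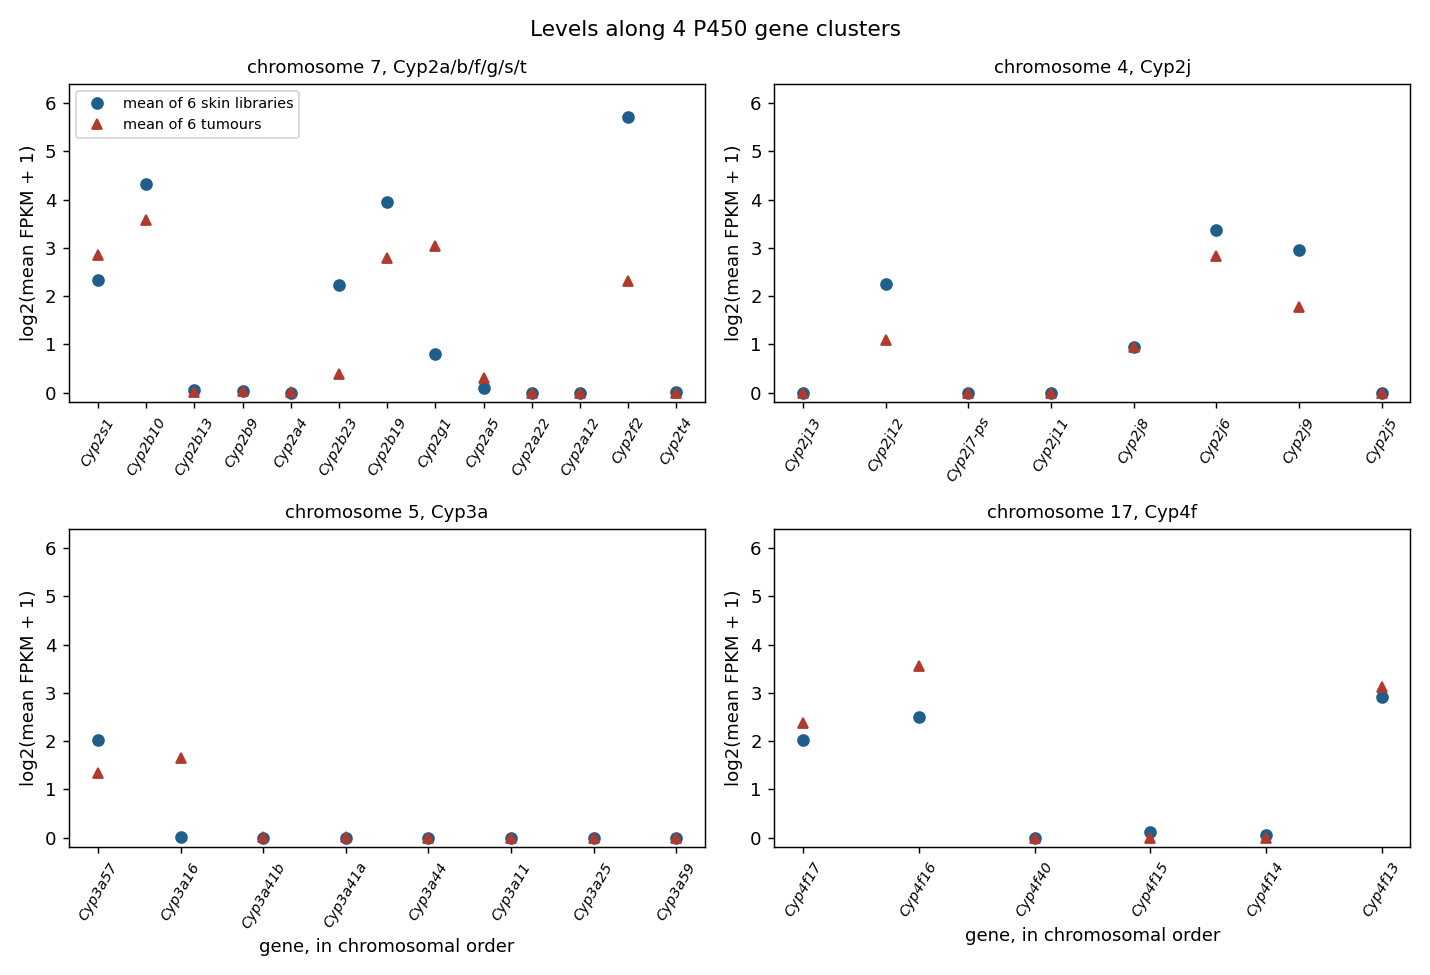
Mean of the 6 skin libraries and of the 6 tumours, as log2(mean FPKM + 1), for members of 4 clusters in chromosomal order. In each cluster members near 0 stand beside expressed ones, and the tumour point of Cyp3a16 comes from 1 library at 12.4 FPKM.

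The summed level of the members was lower in tumours than in skin, and Cyp2e1 and Cyp2f2 carried much of that difference. The sum was 152, 180 and 272 FPKM in WT skin, 526, 192 and 182 in TAp63-/- skin, 115 and 143 in WT cSCC, and 91.1, 101, 58.1 and 95.4 in TAp63-/- cSCC. No tumour reached the lowest skin library. Cyp2e1 alone made up 13.6% to 48.8% of the sum in skin and 0.401% to 3.95% in tumours. Without Cyp2e1 and Cyp2f2 the sum was 103, 106 and 129 FPKM in WT skin and 108 and 129 in WT cSCC, which overlap. It was then 159, 127 and 124 FPKM in TAp63-/- skin and 87.1, 93.2, 55.6 and 92.9 in TAp63-/- cSCC, which do not. In these bulk samples, fewer cells of a type and less RNA per cell cannot be told apart.

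In WT mice, 4 of the 24 tested members passed the test between tumour and skin: Cyp2g1 and Cyp2j8 rose, and Cyp2e1 and Cyp2f2 fell. Over all tested genes 11.4% passed, 4.66% higher and 6.77% lower. At an unadjusted p under 0.05 there were 13 members (background 28.1%). All tumours of the genotype were above its skin for 6 members (background 27.3%) and below it for 10 (background 25.5%). In TAp63-/- mice 14 of 24 passed, against 27.2% of all tested genes. Of these, 12 fell (background 14.2%) and 2 rose (background 13%). At an unadjusted p under 0.05 there were 17 members (background 40.2%). Tumours lay wholly above skin for 2 members (background 17.8%) and wholly below for 12 (background 16.2%). The median log2 change of the tested members was -0.23 in WT mice and -0.67 in TAp63-/- mice, beside 0.04 and 0.10 over all tested genes. By family in TAp63-/- mice, both tested members of family 1 fell, 8 of 14 in family 2 fell, 1 of 2 in family 3 fell and the other rose, and 1 of 6 in family 4 fell and 1 rose. The difference in the number of calls between the genotypes was not tested. For the alternative fits that follow, the share of all tested genes called was not recorded, so their member counts have no background. The WT comparison rests on 2 tumours, and without WT cSCC replicate 1 it had 0 calls, without WT skin replicate 1, 2 or 3 it had 2, 1 and 1, with sex as a covariate 0, and 6 when only the 2 groups compared were fitted. Sex and tissue coincided in WT mice, so the WT fit with sex also rests on the 1 male TAp63-/- tumour and cannot separate them. The TAp63-/- count was 8 without TAp63-/- skin replicate 1, 5 with sex as a covariate, which rests on the 1 male tumour (Cyp2b23, Cyp2e1, Cyp2f2, Cyp2j12 and Cyp3a13), and 9 when only the 2 groups compared were fitted, where Cyp2b10, Cyp2j8, Cyp2j9, Cyp3a13 and Cyp4f18 lost their calls.

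**Figure D3:**
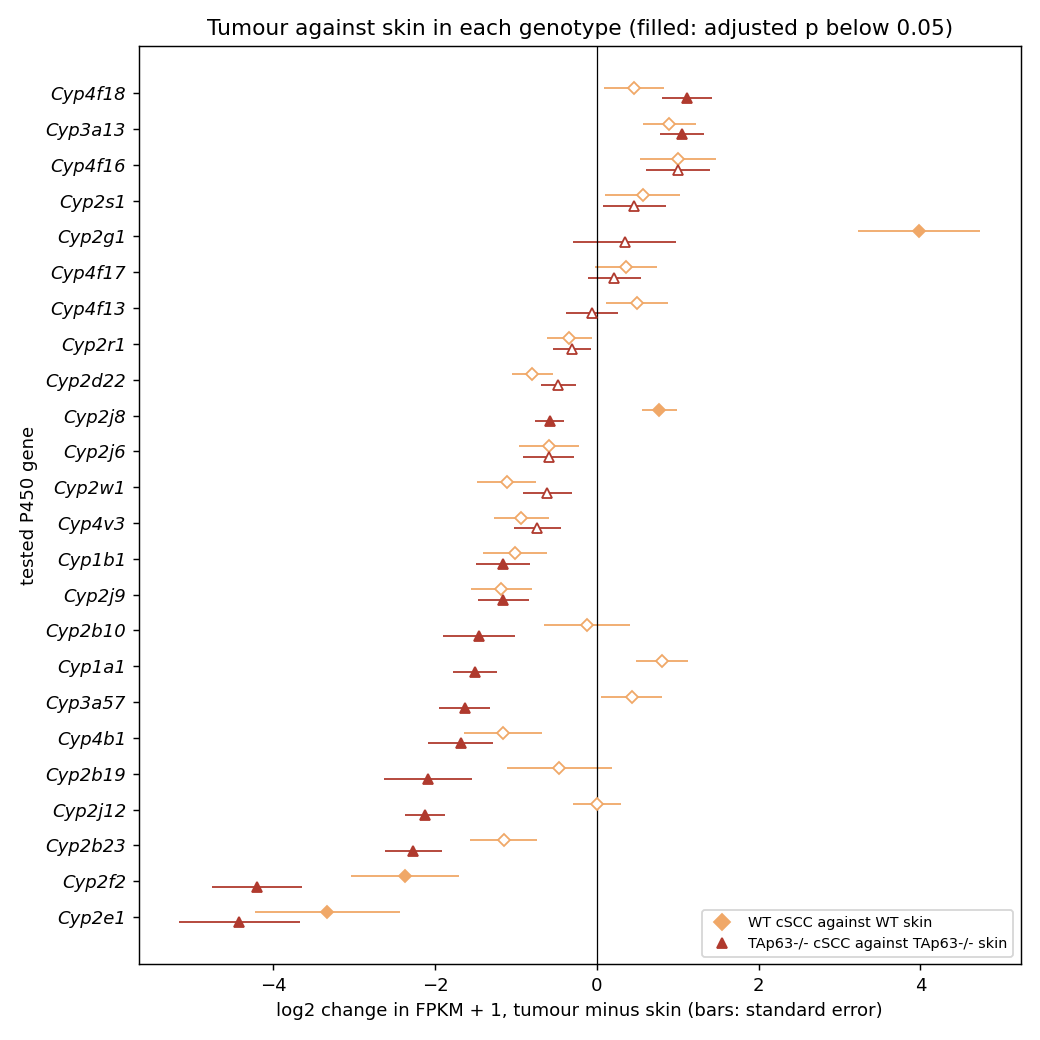
Log2 change in FPKM + 1 from skin to tumour for the 24 tested members in WT and in TAp63-/- mice, with standard errors as bars and filled symbols for an adjusted p below 0.05. Cyp2e1 and Cyp2f2 lie lowest in both genotypes, and Cyp2g1 lies highest in WT mice.

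Cyp2e1 (ENSMUSG00000025479, chromosome 7, 140763739 to 140774975), the ethanol-oxidising enzyme, had the highest single value of any member. It was 22.6, 35.9 and 82.3 FPKM in WT skin, 257, 26.1 and 26.4 in TAp63-/- skin, 2.69 and 3.65 in WT cSCC, and 1.65, 3.37, 2.3 and 0.383 in TAp63-/- cSCC. TAp63-/- skin replicate 1 stood far above the other skin libraries, and no tumour overlapped the skin. The log2 change was -3.33 (SE 0.89, adjusted p = 0.0366) in WT mice and -4.42 (SE 0.75, adjusted p = 0.00168) in TAp63-/- mice. The WT call was lost without WT cSCC replicate 1 or 2 (adjusted p = 0.194 and 0.0784) and without WT skin replicate 2 or 3 (0.0873 and 0.125).

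Cyp2f2 (ENSMUSG00000052974, chromosome 7, 27119909 to 27133660), known for activating naphthalene in airway club cells, followed a similar order. It was 26.8, 38 and 60.7 FPKM in WT skin, 110, 39.1 and 31.1 in TAp63-/- skin, 4.23 and 10.8 in WT cSCC, and 2.36, 4.2, 0.209 and 2.14 in TAp63-/- cSCC. All tumours were below all skin libraries, and TAp63-/- skin replicate 1 was again highest. It fell by 2.37 on the log2 scale (SE 0.66, adjusted p = 0.0431) in WT mice and by 4.20 (SE 0.56, adjusted p = 0.00036) in TAp63-/- mice. The WT call was lost without WT cSCC replicate 1 (adjusted p = 0.299) and without WT skin replicate 1, 2 or 3 (0.0597, 0.103 and 0.14). Its exons overlap those of Gm15883 on the opposite strand, and whether counting used strand is not given in the sources used here.

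Markers of other cells also differed between skin and tumours. The adipocyte markers Adipoq and Plin1 lay at 37.2 to 234 and 10.4 to 76.2 FPKM in skin and at 0.545 to 25.3 and 0.209 to 5.76 in tumours, with both highest in TAp63-/- skin replicate 1. All 6 adipocyte markers were tested, and their sum, dominated in tumours by Fabp4, was 632 to 3888 FPKM in skin and 54.6 to 2694 in tumours. From skin to tumour 5 had a negative and 1 a positive change in WT mice, and all 6 a negative one in TAp63-/- mice. From WT to TAp63-/- skin all 6 had a negative log2 change, and Cyp2e1 (0.47) and Cyp2f2 (0.37) a positive one, none passing. In TAp63-/- skin the adipocyte sums were 3888, 632 and 774 FPKM, and Cyp2e1 and Cyp2f2 were also highest in replicate 1. The 3 club cell markers summed to 8.12 to 21.7 FPKM in skin and 0 to 3.43 in tumours, nearly all of it Scgb1a1 in skin. Fibroblast markers (7 of 7 tested) summed to 2409 to 8772 and 793 to 2594 FPKM. The part of these cells in the P450 values was not tested.

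**Figure D4:**
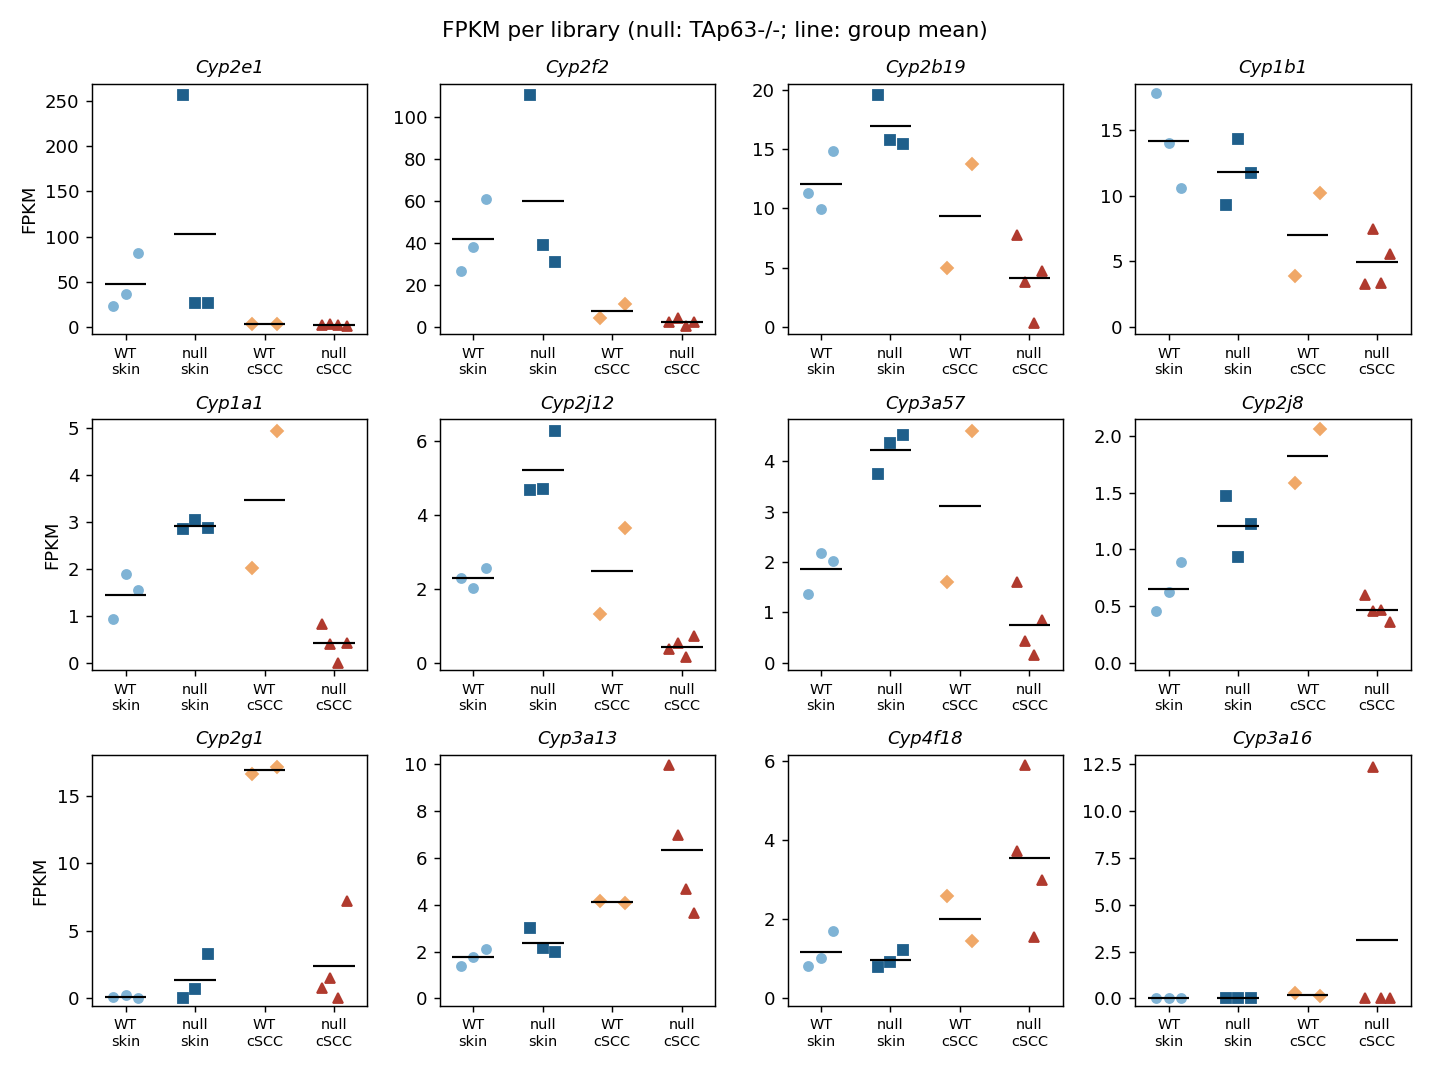
FPKM of 12 members in every library, with a line at each group mean (null is TAp63-/-). The top row holds genes with a lower mean in tumours than in skin in both genotypes, though WT tumours overlap WT skin for Cyp2b19. The middle row holds the 4 genes with the smallest p between the genotypes in skin, and the bottom row genes higher in some tumours.

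Among the Cyp2b genes, Cyp2b19 is an arachidonic acid epoxygenase of differentiating keratinocytes and Cyp2b10 is the phenobarbital-inducible form of liver. Cyp2b19 (ENSMUSG00000066704, chromosome 7, 26757163 to 26772630) was 11.3, 9.94 and 14.9 FPKM in WT skin, 19.6, 15.8 and 15.5 in TAp63-/- skin, 4.93 and 13.8 in WT cSCC, and 7.77, 3.8, 0.314 and 4.68 in TAp63-/- cSCC. The TAp63-/- tumours were all below the TAp63-/- skin, while the WT tumours overlapped WT skin. The log2 change was -2.09 (SE 0.54, adjusted p = 0.0165) in TAp63-/- mice and -0.46 in WT mice, which did not pass. Cyp2b23 (ENSMUSG00000040650, chromosome 7, 26665227 to 26686437) averaged 2.57 ± 1.42 (SD, n = 3) FPKM in WT skin, 4.84 ± 2.4 (n = 3) in TAp63-/- skin, 0.55 ± 0.419 (n = 2) in WT cSCC and 0.179 ± 0.304 (n = 4) in TAp63-/- cSCC. It fell by 2.26 on the log2 scale (SE 0.35, adjusted p = 0.000895) in TAp63-/- mice, and its change of -1.15 in WT mice did not pass (adjusted p = 0.098). Cyp2b10 was the most even of the 3, at 11.6 to 23 FPKM in skin and 3.17 to 21.5 in tumours. Its change of -1.46 (SE 0.44, adjusted p = 0.033) in TAp63-/- mice passed, and -0.12 in WT mice did not. Without TAp63-/- skin replicate 1 the Cyp2b19 call was lost (adjusted p = 0.0616), and the Cyp2b10 call was lost without any 1 of the 3 TAp63-/- skin libraries (0.0871, 0.0794 and 0.0821) or TAp63-/- cSCC replicate 1 or 3 (0.0709 and 0.0665). Sebocyte markers (6 of 6 tested) summed to 130 to 338 FPKM in skin, 71.6 and 240 in WT cSCC and 11.2 to 48.9 in TAp63-/- cSCC. Of 6 keratinocyte markers, 4 rose and 1 fell (-2.75) from skin to tumour in TAp63-/- mice (background 13% and 14.2%). In WT mice 2 rose and 0 fell (background 4.66% and 6.77%). The part of either cell type in the Cyp2b values was not tested.

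Cyp4b1 and Cyp2j9 also lay lower in every tumour than in every skin library, as 5 of the 24 tested members did. The share of all tested genes with this separation was not computed. Cyp4b1 (ENSMUSG00000028713, chromosome 4, 115624725 to 115647709), a fatty acid hydroxylase found mainly outside the liver, was 12.5, 12.3 and 17.6 FPKM in WT skin, 24.8, 13.1 and 13.5 in TAp63-/- skin, 2.93 and 10.5 in WT cSCC, and 4.27, 6.45, 2.19 and 5.98 in TAp63-/- cSCC. Its change was -1.68 (SE 0.40, adjusted p = 0.0115) in TAp63-/- mice, lost without TAp63-/- skin replicate 1 (0.0568), and -1.15 (adjusted p = 0.145) in WT mice. Cyp2j9, of the epoxygenase subfamily 2J, averaged 6.47 ± 1.22 (SD, n = 3) FPKM in WT skin, 7 ± 3.83 (n = 3) in TAp63-/- skin, 2.37 ± 1.17 (n = 2) in WT cSCC and 2.42 ± 0.783 (n = 4) in TAp63-/- cSCC. It fell by 1.15 on the log2 scale (SE 0.32, adjusted p = 0.0208) in TAp63-/- mice, lost without TAp63-/- skin replicate 1 (0.0876), and its change of -1.18 in WT mice did not pass (adjusted p = 0.0676). The tumour-skin differences of these genes were of like size in both genotypes, and the test of the difference between genotypes called neither.

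Cyp1b1 (ENSMUSG00000024087, chromosome 17, 79706953 to 79715041), which oxidises estradiol and polycyclic hydrocarbons, was the higher of the family 1 genes in skin. It was 17.8, 14 and 10.6 FPKM in WT skin, 9.29, 14.3 and 11.7 in TAp63-/- skin, 3.84 and 10.2 in WT cSCC, and 3.28, 7.44, 3.35 and 5.56 in TAp63-/- cSCC. The TAp63-/- tumours were all below the TAp63-/- skin. The log2 change was -1.15 (SE 0.34, adjusted p = 0.0269) in TAp63-/- mice and -1.01 (adjusted p = 0.126) in WT mice. The call was lost without TAp63-/- cSCC replicate 1 or 3 (0.0586 and 0.0626) or TAp63-/- skin replicate 2 or 3 (0.0971 and 0.0676).

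Cyp1a1, Cyp2j12, Cyp2j8 and Cyp3a57 are the 4 members with the smallest p between the genotypes in skin, and none passed the test there. By group means each was higher in TAp63-/- than in WT skin and lowest in TAp63-/- tumours, an order shared by 11 of the 24 tested members, the others being Cyp2b10, Cyp2b19, Cyp2b23, Cyp2e1, Cyp2f2, Cyp4b1 and Cyp4f13. The share of all tested genes with this order was not computed, so the count is not read as a trait of the members. Cyp4f13 has it by small margins (6.55 FPKM in WT skin, 6.59 in TAp63-/- skin and 6.49 in TAp63-/- cSCC). Cyp1a1 is the classic aryl hydrocarbon receptor target, the Cyp2j genes encode fatty acid epoxygenases and Cyp3a57 belongs to the steroid and drug oxidising subfamily 3A. The 250 bases before the RefSeq start of these 4 genes are shown, with those of Cyp1b1 as the other tested family 1 gene (GRCm38.p6, gene strand, 5′ to 3′). Capitals mark GCGTG, the core of the xenobiotic response element bound by the aryl hydrocarbon receptor, TATAAA, the TATA box, AGGTCA, the nuclear receptor half-site, and TGANTCA, the AP-1 motif, on either strand.
Cyp1a1, chr9:57697363-57697612, plus strand: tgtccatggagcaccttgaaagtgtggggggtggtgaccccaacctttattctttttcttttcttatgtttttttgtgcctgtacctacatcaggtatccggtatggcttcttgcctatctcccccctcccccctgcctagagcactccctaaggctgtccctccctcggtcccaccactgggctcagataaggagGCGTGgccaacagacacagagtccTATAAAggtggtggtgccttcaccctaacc
Cyp2j12, chr4:96141153-96141402, minus strand: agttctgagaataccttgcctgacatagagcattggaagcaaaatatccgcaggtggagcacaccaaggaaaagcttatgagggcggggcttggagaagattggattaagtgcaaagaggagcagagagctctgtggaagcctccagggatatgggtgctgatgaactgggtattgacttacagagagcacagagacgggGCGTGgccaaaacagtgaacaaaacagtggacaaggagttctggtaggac
Cyp2j8, chr4:96507398-96507647, minus strand: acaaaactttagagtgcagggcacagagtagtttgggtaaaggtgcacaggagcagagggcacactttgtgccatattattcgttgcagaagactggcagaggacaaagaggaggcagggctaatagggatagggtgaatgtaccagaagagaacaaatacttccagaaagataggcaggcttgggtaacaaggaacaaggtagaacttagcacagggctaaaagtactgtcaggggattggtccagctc
Cyp3a57, chr5:145345019-145345268, plus strand: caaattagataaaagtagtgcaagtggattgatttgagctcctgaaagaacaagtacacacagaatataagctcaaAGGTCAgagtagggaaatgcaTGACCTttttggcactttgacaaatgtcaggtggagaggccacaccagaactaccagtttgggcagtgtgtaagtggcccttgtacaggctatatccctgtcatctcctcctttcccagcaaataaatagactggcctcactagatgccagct
Cyp1b1, chr17:79715062-79715311, minus strand: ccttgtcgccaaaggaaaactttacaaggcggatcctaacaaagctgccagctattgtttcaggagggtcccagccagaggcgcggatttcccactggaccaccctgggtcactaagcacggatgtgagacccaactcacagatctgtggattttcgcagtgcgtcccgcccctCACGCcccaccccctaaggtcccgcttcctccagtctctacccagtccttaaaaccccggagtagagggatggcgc

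The windows of Cyp1a1 and Cyp2j12 each held 1 GCGTG, 54 and 50 bases before the start, with GGCGTGGCCAA the longest word around it that both share. That word was taken from these 2 windows, so its presence in both was given. Searched after the sequences were seen, it occurred in 29 of 32851 RefSeq promoter windows (0.0883%), these 2 included. Cyp1b1 held 1 GCGTG, 76 bases before the start, Cyp2j8 held none of the motifs, and Cyp3a57 held AGGTCA 174 and 153 bases before the start. RefSeq entries matched 61 of the 77 members and 21 of the 24 tested. Of those 21, 8 (38.1%) held GCGTG, 2 (9.52%) TATAAA, 4 (19%) AGGTCA and 3 (14.3%) TGANTCA. Over all 32851 windows the shares were 28.2%, 12.4%, 14% and 6.75%. Over the 68 windows of all members with an entry, tested or not, they were 17.6%, 38.2%, 23.5% and 4.41%. Of the other 7 members with the same order of means, Cyp2b10 held GCGTG. A match is a description of the letters only. Whether any receptor binds the marked stretches was not tested.

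Cyp1a1 (ENSMUSG00000032315, chromosome 9, 57697613 to 57703822) was 0.92, 1.88 and 1.55 FPKM in WT skin, 2.85, 3.04 and 2.88 in TAp63-/- skin, 2.01 and 4.93 in WT cSCC, and 0.815, 0.391, 0 and 0.427 in TAp63-/- cSCC. The TAp63-/- tumours lay below every other library, and TAp63-/- skin above all WT skin. The log2 change from skin to tumour was -1.51 (SE 0.27, adjusted p = 0.0025) in TAp63-/- mice and 0.81 (adjusted p = 0.134) in WT mice. Cyp2j12 (ENSMUSG00000081225, chromosome 4, 96099318 to 96141152) was 2.29, 2.01 and 2.55 FPKM in WT skin, 4.68, 4.7 and 6.28 in TAp63-/- skin, 1.32 and 3.64 in WT cSCC, and 0.356, 0.529, 0.142 and 0.721 in TAp63-/- cSCC. Here too the TAp63-/- tumours were the lowest 4 libraries, and it fell by 2.12 on the log2 scale (SE 0.25, adjusted p = 0.00017) from TAp63-/- skin to tumour.

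Cyp3a57 (ENSMUSG00000070419, chromosome 5, 145345279 to 145390512) was 1.37, 2.19 and 2.02 FPKM in WT skin, 3.75, 4.36 and 4.53 in TAp63-/- skin, 1.6 and 4.61 in WT cSCC, and 1.61, 0.428, 0.153 and 0.841 in TAp63-/- cSCC. The TAp63-/- tumours did not overlap TAp63-/- skin but reached the lower WT tumour. The change was -1.63 (SE 0.31, adjusted p = 0.00357) in TAp63-/- mice and 0.43 in WT mice, which did not pass. Cyp2j8 (ENSMUSG00000082932, chromosome 4, 96444596 to 96507386) was 0.456, 0.619 and 0.885 FPKM in WT skin, 1.47, 0.928 and 1.22 in TAp63-/- skin, 1.58 and 2.06 in WT cSCC, and 0.6, 0.455, 0.461 and 0.357 in TAp63-/- cSCC. It rose in WT tumours (log2 change 0.77, SE 0.21, adjusted p = 0.0396) and fell in TAp63-/- tumours (-0.58, SE 0.18, adjusted p = 0.0325), at levels near the filter. The WT call was lost without any 1 of the 5 WT libraries (adjusted p = 0.0691 to 0.131), and the TAp63-/- call without TAp63-/- cSCC replicate 4 (0.0711) or TAp63-/- skin replicate 1 or 3 (0.115 and 0.0824).

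Between the genotypes no member passed in skin, where 3 of 14752 tested genes did (0.0203%), and none in tumours, where no gene did (0%). At an unadjusted p under 0.05 there were 6 members and 738 genes (5%) in skin, and 5 members and 419 genes (2.84%) in tumours, all by limma. In skin all 3 TAp63-/- libraries were above all 3 WT libraries for 7 of 24 members (background 6.77%) and below for 0 (background 3.85%). The log2 change in skin was 0.91 (SE 0.15, adjusted p = 0.831) for Cyp2j12, 0.88 (SE 0.16, adjusted p = 0.831) for Cyp3a57, 0.70 (SE 0.17, adjusted p = 0.923) for Cyp1a1 and 0.42 (SE 0.14, adjusted p = 0.923) for Cyp2j8. In tumours the TAp63-/- libraries lay below both WT libraries for 5 of 24 members (background 4.14%) and above for 2 (background 5.71%). The changes were -1.62 (SE 0.37) for Cyp1a1, -0.94 (SE 0.22) for Cyp2j8, -2.86 (SE 0.77) for Cyp2g1 and -1.21 (SE 0.34) for Cyp2j12, each with an adjusted p of 1. Sebocyte markers had changes in the same directions for 5 of 6 genes in skin and 6 of 6 in tumours. Skeletal muscle markers did so for 5 of 5 tested genes in both tissues, and none of these markers passed. In skin, fibroblast (7 of 7) and macrophage (5 of 5) markers also had positive changes, as had 7859 of 14752 tested genes. In tumours, adipocyte (6 of 6) and wound keratinocyte (5 of 5) markers also had negative changes, as had 6876 genes. None of these further lists did so for every gene in both tissues. The sebocyte sums in skin were 130 to 259 FPKM (WT) and 290 to 338 FPKM (TAp63-/-). The part of any of these cell types in the P450 values was not tested.

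The test of whether the tumour-skin difference itself depended on genotype called 0 members and 4 of 14752 genes (0.0271%). At an unadjusted p under 0.05 there were 5 members and 444 genes (3.01%). They were Cyp2j12 (-2.12, SE 0.39, adjusted p = 0.306), Cyp1a1 (-2.32, SE 0.43, adjusted p = 0.306), Cyp2j8 (-1.36, SE 0.28, adjusted p = 0.426), Cyp3a57 (-2.06, SE 0.49, adjusted p = 0.637) and Cyp2g1 (-3.64, SE 0.99, adjusted p = 0.964), on the log2 scale and negative where the TAp63-/- difference was the lower. The genotype and tumour-skin comparisons share these libraries and are not independent. Without WT cSCC replicate 1, which leaves 1 WT tumour, the difference was -2.62 for Cyp2j12 and -2.80 for Cyp1a1.

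Cyp2g1 (ENSMUSG00000049685, chromosome 7, 26808927 to 26821197), best known from olfactory mucosa, was nearly silent in WT skin and high in WT tumours. It was 0.111, 0.242 and 0.0446 FPKM in WT skin, 0, 0.703 and 3.3 in TAp63-/- skin, 16.6 and 17.1 in WT cSCC, and 0.805, 1.51, 0 and 7.2 in TAp63-/- cSCC. Both WT tumours stood above every other library, while the TAp63-/- tumours overlapped TAp63-/- skin. The log2 change was 3.98 (SE 0.76, adjusted p = 0.00813) in WT mice, lost without WT cSCC replicate 1 (0.0659) and with sex as a covariate (0.191), and 0.35 (adjusted p = 0.719) in TAp63-/- mice.

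Of the genes higher in tumours, Cyp3a13 (ENSMUSG00000029727, chromosome 5, 137892932 to 137921619), a subfamily 3A enzyme of the intestine that lies apart from the Cyp3a cluster, was the 1 tested member above all skin libraries in all 6 tumours. The share of all tested genes that did so was not computed. Cyp3a13 was 1.37, 1.78 and 2.13 FPKM in WT skin, 3.01, 2.14 and 1.97 in TAp63-/- skin, 4.16 and 4.06 in WT cSCC, and 9.95, 6.99, 4.69 and 3.66 in TAp63-/- cSCC. It rose in TAp63-/- mice (log2 change 1.05, SE 0.27, adjusted p = 0.0161), a call lost without TAp63-/- skin replicate 2 or 3 (0.0563 and 0.0573), and its change of 0.90 in WT mice did not pass (adjusted p = 0.0988). Cyp4f18 (ENSMUSG00000003484, chromosome 8, 71988482 to 72009626), the leukotriene B4 hydroxylase of neutrophils, averaged 1.18 ± 0.469 (SD, n = 3) FPKM in WT skin, 0.978 ± 0.213 (n = 3) in TAp63-/- skin, 2.02 ± 0.792 (n = 2) in WT cSCC and 3.53 ± 1.8 (n = 4) in TAp63-/- cSCC. It rose in TAp63-/- mice (log2 change 1.11, SE 0.31, adjusted p = 0.0217), lost without TAp63-/- skin replicate 1 or 2 (0.0761 and 0.0645). Neutrophil markers (5 of 5 tested) summed to 7.59 to 137 FPKM in skin and 453 to 21140 in tumours, and their part in this value was not tested. Cyp4f18 also overlaps Zfp961 on the opposite strand.

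The remaining expressed members did not pass in either tumour-skin comparison. Cyp4f16, a fatty acid omega-hydroxylase, was 3.14 to 6.49 FPKM in skin and 3.53 to 15.3 in tumours, with a change of 1.01 (adjusted p = 0.0797) in TAp63-/- mice and an adjusted p of 0.191 in WT mice. Cyp4f13 lay at 4.63 to 8.83 and 3.88 to 13.4 FPKM, and Cyp4f17 at 2.59 to 3.5 and 1.55 to 7.67. Cyp4v3, another fatty acid hydroxylase, was 3.51 to 7.03 FPKM in skin and 1.83 to 4.34 in tumours, with a change of -0.73 (adjusted p = 0.0789) in TAp63-/- mice. Cyp2s1, an enzyme of surface epithelia, was 2.51 to 6.18 and 1.92 to 8.75 FPKM. Cyp2j6 was 6.4 to 13.7 and 4 to 8.64 FPKM. Cyp2r1, the vitamin D 25-hydroxylase, stayed between 0.489 and 1.64 FPKM in all 12 libraries. Cyp2d22 was 1.05 to 2.68 and 0.609 to 1.12 FPKM, and Cyp2w1 was 0.256 to 2.45 and 0 to 0.3. At the edge of the filter were Cyp3a16, at 12.4 FPKM in TAp63-/- cSCC replicate 2 and at most 0.271 elsewhere, and Cyp2u1, whose highest value was 1.26. Neither was tested.

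The partners of P450 enzymes were followed through lists, whose counts stand beside 4.66% of all tested genes higher and 6.77% lower in WT tumours, and 13% higher and 14.2% lower in TAp63-/- tumours. Por, the oxidoreductase that serves all of them, averaged 75.6 ± 13.3 (SD, n = 3) FPKM in WT skin, 86.2 ± 40.4 (n = 3) in TAp63-/- skin, 95.2 ± 2.78 (n = 2) in WT cSCC and 101 ± 39.5 (n = 4) in TAp63-/- cSCC, and its changes of 0.34 and 0.24 did not pass (adjusted p = 0.633 and 0.64). Of 7 redox partners, 0 passed in WT mice (background 11.4%), and 4 fell and 0 rose in TAp63-/- mice (background 14.2% and 13%), namely the cytochrome b5 reductase gene Cyb5r3 (-0.71, adjusted p = 0.0101), Pgrmc2 (-0.78, 0.0208), the cytochrome b5 gene Cyb5 (-0.99, 0.0327) and Pgrmc1 (-0.73, 0.0375). The last 3 kept their calls in 4, 2 and 1 of the 7 fits with a library left out. Of 12 genes of haem synthesis and breakdown, 1 rose and 1 fell in WT mice and 2 rose and 3 fell in TAp63-/- mice. Alad, an early enzyme of haem synthesis, fell in both (-0.95, adjusted p = 0.0377, and -1.78, adjusted p = 0.000194), although the WT call was lost without any 1 of the 5 WT libraries (adjusted p = 0.062 to 0.176). Hmox1, the inducible haem oxygenase, rose in both (1.85, adjusted p = 0.0272, and 1.37, adjusted p = 0.0232), kept in 1 of the 5 and 2 of the 7 fits with a library left out. In TAp63-/- mice Cpox rose (1.26, adjusted p = 0.000591) and Blvrb fell (-1.39, adjusted p = 0.00567).

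Of 8 genes of the aryl hydrocarbon receptor pathway, 1 rose and 0 fell in WT mice, and 1 rose and 2 fell in TAp63-/- mice. The riser was Tiparp in both, a target and repressor of the receptor. It averaged 8.21 ± 0.984 (SD, n = 3) FPKM in WT skin, 9.32 ± 1.56 (n = 3) in TAp63-/- skin, 20.3 ± 1.28 (n = 2) in WT cSCC and 27.1 ± 3.49 (n = 4) in TAp63-/- cSCC, with changes of 1.21 (adjusted p = 0.00407) and 1.45 (0.000154). Tiparp thus averaged higher in tumours than in skin in both genotypes, while Cyp1a1 averaged highest in WT cSCC (3.47 FPKM) and lowest in TAp63-/- cSCC (0.408 FPKM). A link between these genes was not tested. Aldh3a1, another target, fell in TAp63-/- mice (-2.36, adjusted p = 0.0115), a change of -1.21 (0.319) with sex as a covariate. The receptor gene Ahr (-0.73 and -0.67, adjusted p = 0.247 and 0.145) and its repressor Ahrr (-0.75 and -0.67, adjusted p = 0.175 and 0.104) did not pass.

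Of 16 nuclear receptor genes 12 were tested: 1 rose and 2 fell in WT mice (background 4.66% and 6.77%), and 1 rose and 7 fell in TAp63-/- mice (background 13% and 14.2%). Nr1i2 was listed at 0 in all libraries and Nr1i3 reached at most 0.152 FPKM, and these encode the drug sensors PXR and CAR of liver. Ppard rose in both genotypes (1.71, adjusted p = 0.00454, and 1.63, adjusted p = 0.00066), the WT call being lost without WT cSCC replicate 1 (0.0574), while Pparg, a regulator of fat and sebaceous cells, fell in TAp63-/- mice (-2.43, adjusted p = 0.00338). The glucocorticoid receptor gene Nr3c1 fell in both (-1.06, adjusted p = 0.0134, and -1.20, adjusted p = 0.00101), the WT call being lost without WT cSCC replicate 1 (0.104) or WT skin replicate 3 (0.0581). Rora fell in TAp63-/- mice (-1.65, adjusted p = 0.00309). Of 22 eicosanoid enzymes, 2 rose and 2 fell in WT mice, and 2 rose and 7 fell in TAp63-/- mice. The prostaglandin E synthase gene Ptges rose in both (2.10, adjusted p = 0.00303, and 1.85, adjusted p = 0.00068), and the lipoxygenase gene Alox12e fell in both (-3.52, adjusted p = 0.00736, and -4.39, adjusted p = 0.000241), the WT call being lost without WT cSCC replicate 1 (0.0931). Ephx1, a microsomal epoxide hydrolase that acts on P450 products, fell in TAp63-/- mice (-2.48, adjusted p = 0.00021), as did the leukotriene synthase gene Ltc4s (-1.82, adjusted p = 0.000751). In WT mice Ptgs2, the inducible cyclooxygenase, rose (4.39, adjusted p = 0.0171) and Hpgd, which degrades prostaglandins, fell (-1.99, adjusted p = 0.013), kept in 2 and 3 of the 5 fits with a library left out. With sex as a covariate these were 0.63 (adjusted p = 0.658) and -0.89 (0.414). In WT mice all skin was male and both tumours female. The sex effect therefore comes from the 1 male TAp63-/- tumour, and the WT libraries cannot separate sex from tissue. Of 19 P450 genes of other families 9 were tested, with 2 risers and 0 fallers in WT mice and 1 riser and 2 fallers in TAp63-/- mice, the risers being Cyp7b1 in both (2.95, adjusted p = 0.027, and 2.05, adjusted p = 0.0304) and Cyp17a1 in WT mice (2.06, adjusted p = 0.0448), kept in 0 of 5, 4 of 7 and 1 of 5 such fits, and the fallers Cyp27a1 (-1.58, adjusted p = 0.00437) and Cyp39a1 (-0.99, adjusted p = 0.00751). With sex as a covariate, 11 of the 12 list genes called in WT mice under the naming rule lost the call, Cyp7b1 keeping it, and 11 of 22 in TAp63-/- mice did, those that kept it being Alad, Cpox, Tiparp, Ppard, Nr3c1, Pparg, Ephx1, Alox12e, Ptges, Ltc4s and Cyp7b1. In none of the 6 lists did a gene pass between the genotypes or in the test of the difference.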

How the data were processed

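Total RNA of 12 mouse libraries was sequenced with the Illumina TruSeq RNA kit, per the labels. TopHat2 2.0 and Cufflinks 2.0 on mm10 are named, per the submitters' processing notes. Values as deposited by the authors are taken as FPKM, a unit inferred from Cufflinks and the values. In every library at least 99.98% of the sorted values of at least 1 FPKM lay within 1% of the common value, so quantile normalization was inferred, although no source records it; library sums (780180 to 780251 FPKM) carry no depth.

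Entries of 1 symbol were summed, and the 14752 genes that reached 1 FPKM in 2 or more libraries were tested. log2(FPKM + 1) was fitted with limma 3.58.1 (R 4.3.3) with a variance trend. Fold changes on this scale understate changes of low genes. P-values are two-sided and Benjamini-Hochberg adjusted over all tested genes, called below 0.05. Genotype comparisons used the 6 libraries of a tissue, and the others all 12. The script was tested on simulated data. Members, lists and tests were chosen with earlier results of these data known. Members averaging 1 FPKM in a group were named, with called members or, where fewer than 4 were called, the 4 with the smallest p; of each list at most the 4 called genes with the smallest p. A few list genes are counted but not reported by name. Coordinates count the start from 1. Alternatives covered the pseudocount, filter, scaling, variance trend, weights, row choice, sex, libraries fitted and each replicate left out.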

Additional observations from a re-analysis of the deposited data

Results flagged for a closer look

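Each of the 25 named P450 genes was checked in the 4 TAp63-/- tumours for a library standing far from the rest, and 2 had one. Chance marks about 1 in 20 such groups only where values are normally distributed, which values near 0 need not be. Cyp3a16 reached a mean of 1 FPKM only through the library flagged here, so its flag followed from the choice of genes. Cyp3a16 was 12.4 FPKM in TAp63-/- cSCC replicate 2 and 0, 0 and 0.021 in the other 3 tumours. Cyp2b23 was 0.635 FPKM in TAp63-/- cSCC replicate 1, the 1 male tumour, and 0.0309, 0 and 0.0505 in the others.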

How the results depend on the processing

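No direction changed among 1037 recomputed values of the named results. Of these, 873 stayed called or stayed uncalled as in the main fit, 162 lost a call and 2 gained one. The 873 include values of the genotype comparisons and of the test of the difference, where no named member was called. In WT tumours against WT skin, the 4 calls became 2 with no filter on low values, 2 with array weights, 0 with sex as a covariate, 6 (2 higher, 4 lower) with only the 2 groups compared and 0 to 4 with 1 library left out. In TAp63-/- mice, the 14 calls became 8 with a filter at 5 FPKM, where 14 members were tested, 5 with sex as a covariate, 9 with only the 2 groups compared and 8 to 15 with 1 library left out. The test of the difference gave 0 calls in every setting except the fit without WT cSCC replicate 1, which leaves 1 WT tumour. For these settings the share of all tested genes called was not recorded, so a loss of calls is not read as particular to the members. Where not stated, the cause was not tested. Both genotype comparisons gave 0 calls in all settings. Of the 14 TAp63-/- calls, 4 held in every setting: Cyp2b23, Cyp2e1, Cyp2f2 and Cyp2j12. Cyp1a1 (adjusted p = 0.0909) and Cyp3a57 (0.142) were lost with sex as a covariate alone. Leaving out a WT tumour leaves 1, assumed to vary like the other groups. The fits with sex take its effect from the 1 male tumour, and in WT mice sex and tissue coincided. No paired analysis was possible because the labels give the groups no shared replicate numbers. Depth is unknown, so precision at low FPKM cannot be judged.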
